A study of Mus musculus with 16 samples.

Results

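Notch signalling is represented here by 10 mouse genes: the receptors Notch1, Notch2, Notch3 and Notch4, the ligands Jag1, Jag2 and Dll1, and the target genes Hes1, Hey1 and Heyl. They were chosen by name, as every probe set whose only gene symbol is one of them, which gave 18 of the 20380 probe sets with 1 symbol: 8 for receptors, 5 for ligands and 5 for targets. Messenger RNA was measured in 16 samples on Affymetrix mouse M430A_2 arrays. Melanomas of the iMet mouse, genotype Tyr-rtTA;Tet-Met;Ink4a/Arf-/-, gave 6 arrays, and melanomas of the iHRAS* mouse, called iRas in the sample titles, genotype Tyr-rtTA;Tet-HRASV12G;Ink4a/Arf-/-, gave 6 more. Both models therefore lack Ink4a and Arf, and in both a tyrosinase promoter drives the rtTA activator that switches on the Met or HRASV12G transgene in the melanocyte lineage. The last 4 arrays are labelled mouse melanocytes with no disease, and their genotype is not given. Ages, the number of animals and any pooling are not given either, so p-values measure the spread between these samples, which may be technical. The labels of the tumour arrays speak of isolated melanoma cells, whereas the design text speaks of RNA from cutaneous melanomas.

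Notch receptors are single-pass membrane proteins that are cleaved when a Delta or Jagged ligand on a neighbouring cell binds them. An ADAM protease and then gamma-secretase release the intracellular domain, which enters the nucleus, joins the DNA-binding protein RBPJ and a Mastermind coactivator, and turns on genes such as the HES and HEY repressors. Without the intracellular domain RBPJ recruits corepressors. In the melanocyte lineage Notch signalling through RBPJ and Hes1 is known for maintaining melanoblasts and melanocyte stem cells, and in blood vessels Notch4 and Dll4 act in endothelium and Notch3 in pericytes and smooth muscle.

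Marker genes of the labelled cell type were only partly present on the melanocyte arrays. Of 9 measured melanocyte markers, Mitf, Tyr, Tyrp1, Dct and Oca2 lay at or below log2 6.21 on all 4 of these arrays, the level used here as the limit of usable signal (the 40th percentile of all values), whereas Sox10 averaged 9.66 ± 0.65 (SD, n = 4). The keratins Krt5 and Krt14 averaged 12.6 ± 1.33 and 12.7 ± 0.92 there (log2, SD, n = 4). Of 11 measured keratinocyte markers 3, Krt1, Cdh1 and Epcam, were below the limit on all 4 melanocyte arrays. The summed signal of the keratinocyte markers was higher on melanocyte arrays 2 and 4 (log2 15.11 and 15.23) than on arrays 1 and 3 (13.71 and 12.74). Tyr, Tyrp1, Dct, Pmel, Pax3 and Oca2 were below that limit on every iMet array, and Oca2 alone was so on the iHRAS* arrays. Tyr and Tyrp1 each passed it on only 1 of 6 iHRAS* arrays, and Dct on 2 of 6. Summed endothelial markers ran from log2 8.75 to 9.26 on the melanocyte arrays, where 9 of 12 were below the limit throughout, from 11.1 to 12.8 on the iMet arrays and from 10.3 to 11.3 on the iHRAS* arrays. Summed macrophage markers ran from 8.79 to 9.26, from 14.2 to 14.6 and from 12.1 to 14.3 in the same order. In samples that may hold several cell types, fewer cells of a type and less RNA per cell cannot be told apart. The group is called melanocytes below because the labels do so. Across all genes, 1687 of 8058 tested differed between the tumour models, 3040 of 8651 between iMet tumours and melanocytes, and 3404 of 8651 between iHRAS* tumours and melanocytes.

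**Figure D1:**
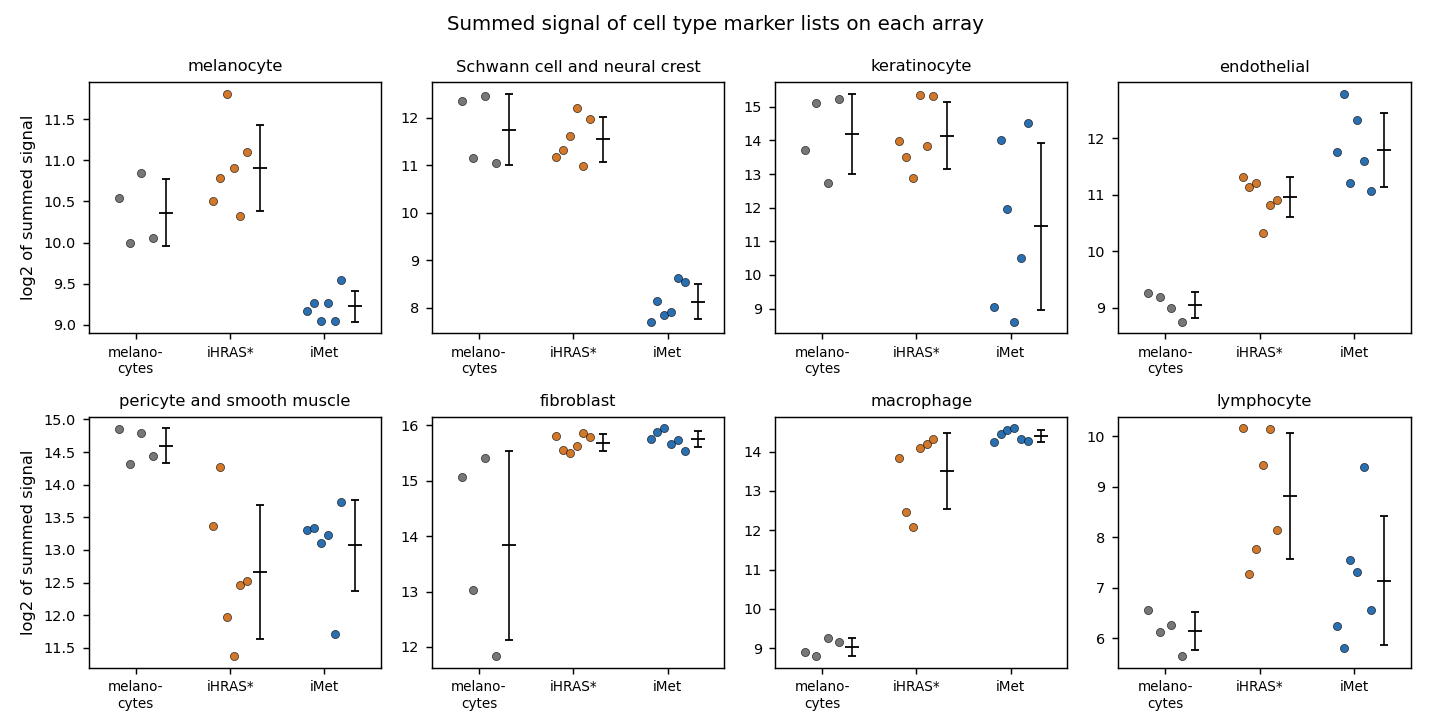
Log2 of the summed signal of each of 8 cell type marker lists (y axis) on every array, by group (x axis), with 1 point for each array. Endothelial and macrophage sums are lowest on the 4 melanocyte arrays, and the keratinocyte sum spreads from 8.61 to 14.51 within the iMet group.

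Promoter sequences are shown for a receptor and both ligands whose values in iMet tumours did not overlap those of melanocytes (Notch4, Jag1 and Dll1), and for Rbpj, which encodes the DNA-binding partner of all the receptors and separated the 3 groups. Windows of 300 bases came from a RefSeq promoter table, build GRCm38.p6, and 7 of the 10 members had one or more, 8 windows in all. The windows shown for Notch4, Jag1 and Dll1 hold the annotated start of the gene, whereas that of Rbpj lies inside the annotated gene, downstream of its first base. Hes1, Hey1 and Heyl had no window in that table and are named only. Capitals mark matches, on either strand, to TGGGAA, the core letters that RBPJ binds, or to CACGNG, letters of the sites that HES and HEY proteins bind.
Notch4, chr17:34564045-34564344, plus strand: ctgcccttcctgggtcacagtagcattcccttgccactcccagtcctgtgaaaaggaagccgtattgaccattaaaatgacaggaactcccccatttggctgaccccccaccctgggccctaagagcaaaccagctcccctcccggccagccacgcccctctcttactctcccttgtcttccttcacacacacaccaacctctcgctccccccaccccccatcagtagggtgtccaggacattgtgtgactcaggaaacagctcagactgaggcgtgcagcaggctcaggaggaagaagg
Jag1, chr2:137116471-137116770, minus strand: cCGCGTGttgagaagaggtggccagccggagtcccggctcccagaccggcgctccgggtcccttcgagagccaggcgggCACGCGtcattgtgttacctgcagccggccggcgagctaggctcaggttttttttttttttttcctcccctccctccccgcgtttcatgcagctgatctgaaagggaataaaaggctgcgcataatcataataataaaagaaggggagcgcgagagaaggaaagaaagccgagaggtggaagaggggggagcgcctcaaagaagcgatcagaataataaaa
Dll1, chr17:15376883-15377182, minus strand: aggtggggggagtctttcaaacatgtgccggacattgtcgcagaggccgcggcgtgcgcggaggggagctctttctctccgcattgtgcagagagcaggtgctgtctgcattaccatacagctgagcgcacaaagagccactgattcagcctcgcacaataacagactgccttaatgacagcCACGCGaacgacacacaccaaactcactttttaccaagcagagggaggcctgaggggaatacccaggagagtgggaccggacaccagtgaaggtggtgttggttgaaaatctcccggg
Rbpj, chr5:53590096-53590395, plus strand: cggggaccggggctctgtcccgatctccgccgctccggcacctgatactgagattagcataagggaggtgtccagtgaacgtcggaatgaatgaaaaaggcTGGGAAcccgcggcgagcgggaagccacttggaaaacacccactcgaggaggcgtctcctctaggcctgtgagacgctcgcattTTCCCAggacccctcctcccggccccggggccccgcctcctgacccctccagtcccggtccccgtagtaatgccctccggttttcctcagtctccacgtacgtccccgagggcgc
The window of Notch4 has no match to either motif. The Jag1 window has 2 matches to CACGNG, the Dll1 window 1, and the Rbpj window 2 matches to TGGGAA. Over all 8 member windows, TGGGAA was found in 0 and CACGNG in 6, against 25.6% and 27.5% of the 32851 promoter windows of the same length. No matches to the 2 motifs overlapped in the member windows. These cover the receptors and ligands only, with more than 1 window for Dll1, so they say nothing about the HES/HEY targets. A match is a description of these letters and not a binding site.

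More of the members were called against melanocytes than between the tumour models. For iMet tumours against melanocytes, 9 of the 10 members passed the signal limit and 8 were called at a limma adjusted p under 0.05, 3 higher and 5 lower, where 35.1% of all genes tested were called, 16.4% higher and 18.7% lower. For iHRAS* tumours against melanocytes, 9 were tested and 7 called, 3 higher and 4 lower, where 39.3% of all genes were called, 18.1% higher and 21.3% lower. Between iMet and iHRAS* tumours 8 were tested and 1 was called, which was lower in iMet. Of all genes 20.9% were called and 9.7% called lower, so 1 of 8 lies near these shares and is not a result about the members. Notch4 is above the limit on 0 of 4 melanocyte arrays and Jag1 on 0 of 6 iMet arrays, so each entered its tests through the groups where it is high and these counts are given as a description. The median difference of the members tested was log2 -1.13 for iMet and -0.69 for iHRAS* against melanocytes, where the median of all genes tested was -0.08 and -0.09. With Notch4 and Jag1 set at the limit in the groups that lie wholly below it, these medians were -0.92 and -0.69. The median of the members was -0.18 between the models, where that of all genes was 0.03. Both comparisons with melanocytes use the same 4 melanocyte arrays.

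**Figure D2:**
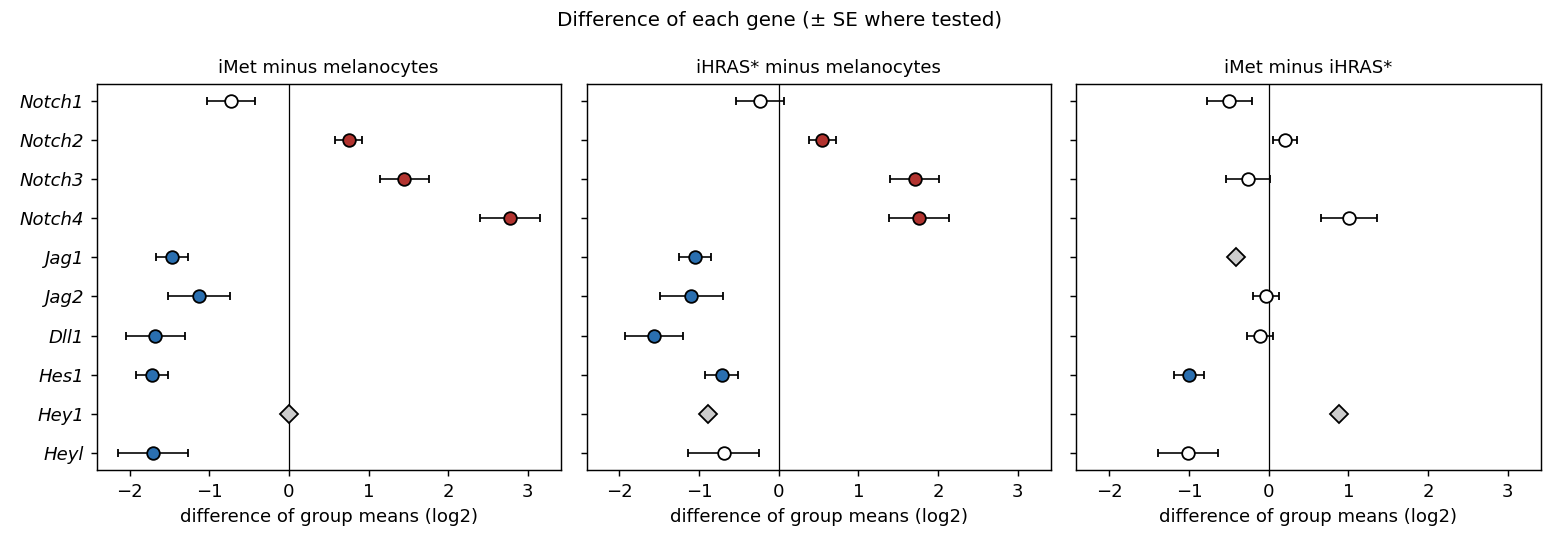
Difference in log2 signal (x axis) of each of the 10 members (y axis) in the 3 comparisons, with bars for the standard error of the limma fit; red marks genes called higher, blue called lower, white tested and not called, and grey diamonds members that were not tested. Notch2, Notch3 and Notch4 lie to the right of 0 and Jag1, Jag2, Dll1 and Hes1 to the left in both comparisons with melanocytes.

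Of the receptors, Notch2, Notch3 and Notch4 were higher in both tumour models than in melanocytes, and Notch1 was called in neither. Notch4 (chr17:34564286-34588543, GRCm38.p6), the receptor known from endothelium, was not above the limit in melanocytes. Its log2 signal was 5.97, 5.04, 5.29 and 5.10 on melanocyte arrays 1 to 4, all below the limit. On the iMet arrays it had a lowest value of 7.60, a median of 8.07 and a highest of 8.64. On the iHRAS* arrays the corresponding values were 5.87, 7.09 and 8.39. The iMet values all lay above the melanocyte values, whereas 1 iHRAS* array, the only one below the limit, fell within their range. With melanocytes set at the limit, Notch4 was at least 3.77-fold higher in iMet tumours and at least 1.88-fold higher in iHRAS* tumours. The fitted differences, whose size rests on melanocyte signals near background, were 2.77 ± 0.38 (SE, limma adjusted p 7.18e-05) and 1.77 ± 0.38 (adjusted p 0.00209). The other Notch4 probe set stayed below the limit on all 16 arrays and had values of -0.23 and -0.46 (exact permutation p 0.371 and 0.443). With the mean of both probe sets the differences were 1.27 (adjusted p 0.00719) and 0.65 (adjusted p 0.119). Between the models Notch4 was higher in iMet by 1.01 ± 0.35, which did not pass (adjusted p 0.0611, unadjusted p 0.0142). That difference was 1.26 with adjusted p 0.0117 without iHRAS* array 3, 1.19 with 0.0239 on the values as deposited, and 1.01 with 0.0472 with all 16 arrays in the fit.

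Notch3 (chr17:32120820-32166896), a receptor of vascular smooth muscle and pericytes, was 6.57, 6.35, 7.25 and 6.44 on the melanocyte arrays. It ran from 7.57 to 9.11 with a median of 7.98 on the iMet arrays, and from 7.87 to 9.01 with a median of 8.26 on the iHRAS* arrays. Every tumour array lay above every melanocyte array, and the models overlapped. The differences were 1.45 ± 0.30 for iMet (2.73-fold, limma adjusted p 0.0020) and 1.71 ± 0.30 for iHRAS* (3.26-fold, adjusted p 0.000597), and both were called under every alternative run. The second Notch3 probe set, below the limit on all melanocyte arrays, gave 1.79 (adjusted p 0.00375) and 1.78 (adjusted p 0.00353). It passed the limit on 2 iMet and 2 iHRAS* arrays and entered the fit through these, so its values are given as a description. With melanocytes set at the limit it was at least 1.09-fold higher in iMet and at least 1.08-fold higher in iHRAS* tumours. Between the models the difference was -0.26 ± 0.28, adjusted p 0.545.

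Notch2 (chr3:98013538-98150367), the other receptor higher in both models, was 8.49, 8.78, 8.36 and 8.76 on the melanocyte arrays. It ran from 9.08 to 9.68 with a median of 9.30 in iMet tumours and from 8.60 to 9.44 with a median of 9.21 in iHRAS* tumours. Only the iMet values lay wholly above those of melanocytes. The differences were 0.75 ± 0.17 (limma adjusted p 0.00305) and 0.55 ± 0.17 (adjusted p 0.0177). The other Notch2 probe set, which passed the limit on 2 of 16 arrays, went the opposite way, by -0.66 in iMet (exact permutation p 0.00476, the smallest that 6 against 4 arrays can give) and by -1.45 in iHRAS* (exact p 0.0571). With the mean of both probe sets the differences were 0.05 (adjusted p 0.912) and -0.45 (adjusted p 0.211), so the direction of Notch2 depends on the probe set. Without melanocyte arrays 1 and 3 they were 0.58 (adjusted p 0.0598) and 0.37 (adjusted p 0.191), and without melanocyte array 3 the iHRAS* difference was 0.47 (adjusted p 0.0575). The iHRAS* call was also lost on the deposited scale (0.34, adjusted p 0.168), with each array centred on its median (0.33, adjusted p 0.175) and without iHRAS* arrays 5 and 6 (0.45, adjusted p 0.0811).

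Notch1 (chr2:26457902-26503822) was 9.45, 9.82, 9.35 and 9.83 on the melanocyte arrays. It ran from 8.49 to 9.43 with a median of 8.81 in iMet tumours and from 8.38 to 10.1 with a median of 9.64 in iHRAS* tumours, and the groups overlapped. The difference from melanocytes was -0.73 ± 0.30 for iMet (limma adjusted p 0.0704) and -0.24 ± 0.30 for iHRAS* (adjusted p 0.551). The iMet difference passed with each array centred on its median (-0.94, adjusted p 0.0203), with the mean of both probe sets (-0.75, 0.0193), with only these groups in the fit (-0.73, 0.0183) and without iMet array 2 (-0.84, 0.0491). When every probe set was fitted, the second Notch1 probe set was lower in iMet tumours than in melanocytes (-0.77, adjusted p 0.00471, all 6 arrays lower) and differed from iHRAS* tumours by -0.44 (adjusted p 0.0475, with overlap), where 32.6% and 19.3% of probe sets were called. Between iHRAS* tumours and melanocytes, where 38% of probe sets were called, it was not (-0.33, adjusted p 0.158).

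Against melanocytes, most endothelial, macrophage and fibroblast markers were called higher, as were Notch2, Notch3 and Notch4. Of 12 endothelial markers 11 were called higher in iMet and 10 in iHRAS* tumours than in melanocytes, and 8 were called higher in iMet than in iHRAS* tumours. Of 8 macrophage markers all 8 were called higher in both models against melanocytes. Of 8 fibroblast markers 5 and 6 were. Between the models 2 macrophage markers were called higher in iMet and none lower. Of the fibroblast markers 1 was called higher and 1 lower in iMet. No receptor was called between the models in the main fit. Of the pericyte and smooth muscle markers 3 were called higher and 2 lower in each model. Their sum ran higher on the melanocyte arrays (14.3 to 14.8) than in iMet (11.7 to 13.7) or iHRAS* tumours (11.4 to 14.3). Acta2 and Tagln, the highest of the list in melanocytes (means 13.9 and 12.9), weigh most in that sum. Rgs5 went the other way (4.48 in melanocytes, 9.73 in iMet, 9.05 in iHRAS*), and so did Cspg4 (6.73, 9.62 and 10.2). The median difference of those tested from melanocytes was 1.73 for iMet and 1.51 for iHRAS* tumours. The part of all these markers in the receptor results was not tested.

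**Figure D3:**
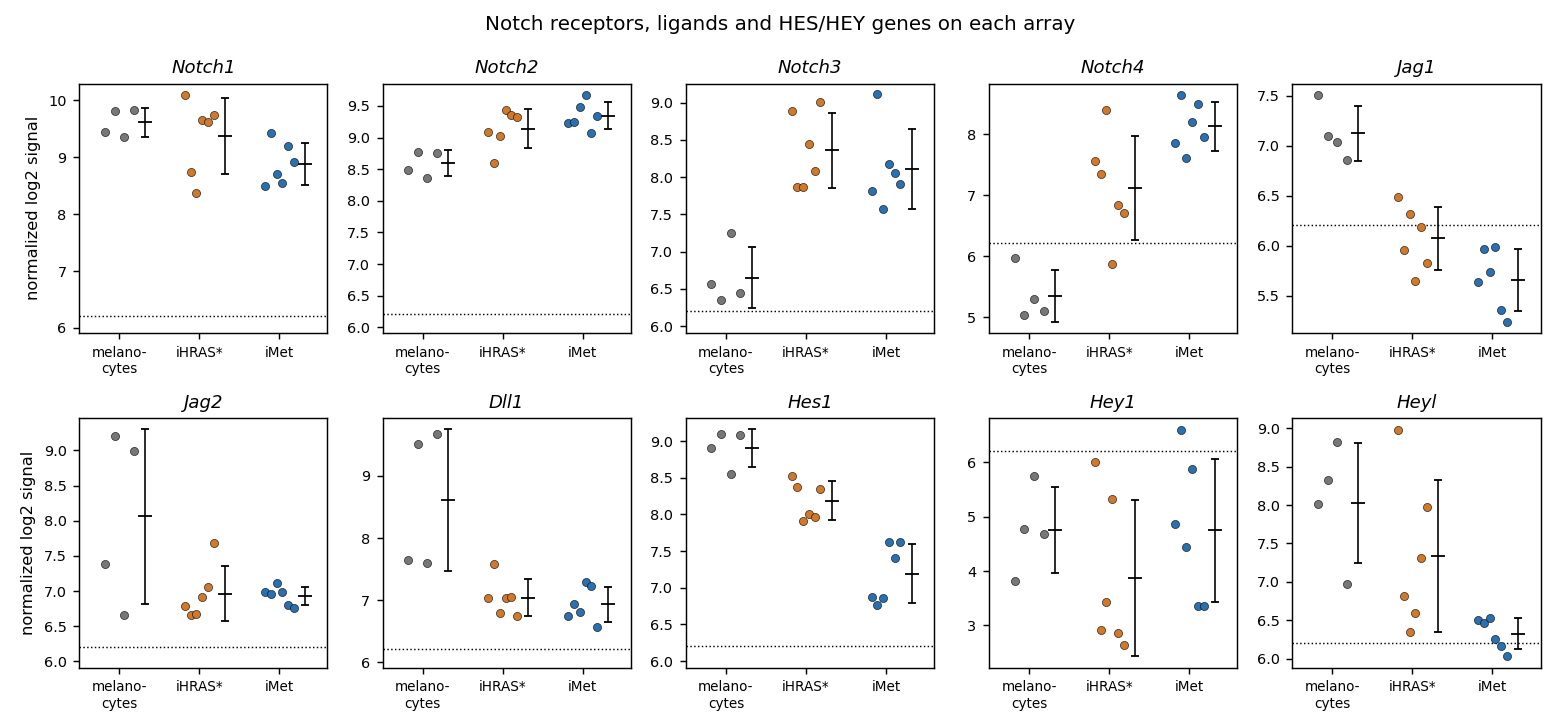
Normalized log2 signal (y axis) of each of the 10 members on every array, by group (x axis), with 1 point for each array, the mean ± SD to the right of the points and a dotted line at the limit of 6.21. Hes1 falls into 3 separate ranges, Notch4 is below the line on all 4 melanocyte arrays, and Dll1 and Jag2 are split between melanocyte arrays 2 and 4 and arrays 1 and 3.

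All 3 ligands were called lower in both tumour models than in melanocytes in the main fit, but the Jag2 calls were lost in most alternatives. Jag1 (chr2:137081451-137116520), a Jagged ligand, was 7.51, 7.10, 7.04 and 6.86 on the melanocyte arrays. It ran from 5.24 to 5.99 with a median of 5.69 in iMet tumours, below the limit on every array, and from 5.65 to 6.49 with a median of 6.07 in iHRAS* tumours. No tumour array reached the melanocyte range. With iMet tumours set at the limit, Jag1 was at least 1.89-fold lower there than in melanocytes. The fitted differences were -1.47 ± 0.20 for iMet (limma adjusted p 6.07e-05) and -1.05 ± 0.20 for iHRAS* (adjusted p 0.000814), both called under every alternative run. The second Jag1 probe set, also below the limit on every iMet array, gave -3.64 (adjusted p 1.34e-05) and -2.64 (adjusted p 0.00023). Because the tumour signals lie near background, the size of the fall is poorly measured. Jag1 was not in the fit between the models, where the difference was -0.42 with overlap (exact permutation p 0.0498, not adjusted).

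Dll1 (chr17:15367354-15376932), a Delta ligand, was 7.65, 9.51, 7.59 and 9.68 on the melanocyte arrays, so that arrays 2 and 4 stood well above arrays 1 and 3. It ran from 6.57 to 7.29 with a median of 6.88 in iMet tumours and from 6.75 to 7.58 with a median of 7.03 in iHRAS* tumours. All tumour values lay below all melanocyte values, the highest iHRAS* array by little. The differences were -1.68 ± 0.37 (limma adjusted p 0.00271) and -1.57 ± 0.37 (adjusted p 0.00385). Without melanocyte arrays 2 and 4 they were -0.69 (adjusted p 0.0406) and -0.58 (adjusted p 0.0757). The size therefore rests on that pair of arrays, which were also those with the higher keratinocyte sum. Their fibroblast sums were lower (log2 13.02 and 11.83) than those of arrays 1 and 3 (15.07 and 15.4). Lower there too were the Schwann cell and neural crest sums (11.15 and 11.05 against 12.34 and 12.46) and the melanocyte sums (10 and 10.06 against 10.54 and 10.85).

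Jag2 (chr12:112907803-112929812), the other Jagged ligand, showed the same split, with 7.38, 9.21, 6.66 and 8.99 on melanocyte arrays 1 to 4. It ran from 6.76 to 7.11 with a median of 6.97 in iMet tumours and from 6.66 to 7.69 with a median of 6.85 in iHRAS* tumours. Melanocyte array 3 lay below or within both tumour ranges. The differences were -1.13 ± 0.39 (limma adjusted p 0.0360) and -1.10 ± 0.39 (adjusted p 0.0371). Without melanocyte arrays 2 and 4 they were -0.09 (adjusted p 0.825) and -0.06 (adjusted p 0.889), and without array 2 alone -0.75 (adjusted p 0.147) and -0.72 (adjusted p 0.156). The calls were lost in 13 of 20 alternatives for iMet and in 12 of 21 for iHRAS*. Among these were no filter (adjusted p 0.0528 and 0.0519) and only these groups in the fit (0.0686 and 0.0991). The second Jag2 probe set was called in neither comparison (-1.26, adjusted p 0.132, and -1.09, adjusted p 0.174). Over all 16 arrays Jag2 and Dll1 had a Pearson r of 0.86, and of 0.75 for the deviations from the group means. The part of the keratinocyte, fibroblast, neural crest and melanocyte signals in the ligand results was not tested.

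Between the tumour models neither ligand in the fit was called. The iMet minus iHRAS* difference was -0.03 ± 0.16 for Jag2 (limma adjusted p 0.914) and -0.11 ± 0.16 for Dll1 (adjusted p 0.675).

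Hes1 (chr16:30065357-30067796), the HES repressor best known as a direct Notch target, was the only member called in all 3 comparisons. Its log2 signal was 8.90, 9.10, 8.55 and 9.08 on the melanocyte arrays. On the iHRAS* arrays it had a lowest value of 7.91, a median of 8.17 and a highest of 8.53. On the iMet arrays the values were 6.76, 7.14 and 7.63. The 3 groups did not overlap, though the highest iHRAS* array came within 0.03 of the lowest melanocyte array. Hes1 was lower in iMet than in iHRAS* tumours, with a log2 difference of -1.001 ± 0.189, 2.00-fold, with a limma adjusted p of 0.00346. It is 1 of 8 members tested whose models did not overlap, where 10.7% of all genes tested did not. Against melanocytes the differences were -1.72 ± 0.20 for iMet (3.29-fold, adjusted p 2.03e-05) and -0.72 ± 0.20 for iHRAS* (1.64-fold, adjusted p 0.0123). In these comparisons 7 and 4 of the 9 members tested did not overlap, where 27.7% and 25.3% of all genes did not. The difference between the models was called under every alternative run and ran from -1.09 to -0.73, with adjusted p from 0.00213 to 0.0317. The smallest of these was on the values as deposited, where the median of all genes was 0.23. That of iMet from melanocytes was also called under every alternative. That of iHRAS* from melanocytes was -0.54 (adjusted p 0.159) without melanocyte arrays 2 and 4.

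Heyl (chr4:123233556-123249870), a HEY-family repressor known from vascular smooth muscle, was 8.01, 8.32, 8.82 and 6.97 on the melanocyte arrays. It ran from 6.03 to 6.53 with a median of 6.36 in iMet tumours and from 6.35 to 8.98 with a median of 7.07 in iHRAS* tumours. The iMet values all lay below the melanocyte values, and the iHRAS* values spread over both. Only 4 of the 6 iMet arrays passed the limit, so the size of the iMet differences rests on signals near background. Heyl was lower in iMet tumours than in melanocytes (-1.71 ± 0.44, limma adjusted p 0.00808), and the difference was -1.32 without melanocyte arrays 1 and 3 (adjusted p 0.101). The iHRAS* difference was -0.69 ± 0.44 (adjusted p 0.228), and -1.02 with adjusted p 0.0353 without iHRAS* array 1. The difference between the models was -1.01 ± 0.38 (adjusted p 0.0746), and -1.21 with adjusted p 0.0355 without iHRAS* array 3. Of the other Heyl probe sets, one, below the limit on every iMet array, was called lower in iMet than in melanocytes (-2.15, adjusted p 0.0192) and the other was not called (-1.41, adjusted p 0.118).

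Hey1 (chr3:8663359-8667038), the other HEY repressor, passed the limit on 1 of 16 arrays, an iMet array, and was not in any fit. It averaged 4.75 ± 0.79 (SD, n = 4) in melanocytes, 4.75 ± 1.31 (n = 6) in iMet tumours and 3.87 ± 1.43 (n = 6) in iHRAS* tumours, with exact permutation p of 1, 0.295 and 0.284 for iMet and iHRAS* against melanocytes and between the models. No difference was detectable at these signals.

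Schwann cell and neural crest, melanocyte and keratinocyte markers moved with Hes1 between the models. The sum for Schwann cell and neural crest genes ran from log2 7.71 to 8.62 in iMet and from 10.98 to 12.2 in iHRAS* tumours. Of these 6 genes 5 were called lower in iMet. Of the melanocyte markers 3 were called lower in iMet than in iHRAS* tumours and none higher, and Sox10 averaged 6.90 ± 0.53 against 10.2 ± 0.70 (SD, n = 6 each). Of 10 keratinocyte markers tested 4 were called lower in iMet and none higher, with summed signals of 8.61 to 14.51 in iMet and 12.87 to 15.34 in iHRAS* tumours. In iHRAS* tumours against melanocytes, where Hes1 was lower, 1 melanocyte marker was called higher and none lower. There 4 keratinocyte markers were called higher and none lower, and 1 Schwann cell and neural crest gene went each way. In iMet tumours against melanocytes the lower calls were 3, 6 and 4 and the higher calls 1, 3 and 0, in the same order. The part of these markers in the Hes1 result was not tested.

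The other genes of the pathway, 59 on a list of ligands, feedback targets, glycosyltransferases, proteases, ubiquitin ligases, nuclear partners and corepressors, had probe sets for 50. Between the models 41 were tested and 9 called, 2 higher and 7 lower in iMet. Against melanocytes 42 were tested, with 12 called for iMet (6 higher, 6 lower) and 11 for iHRAS* (9 higher, 2 lower). These shares lie near or below the 20.9%, 35.1% and 39.3% of all genes and are not a result about the pathway.

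Rbpj (chr5:53555779-53657445), the DNA-binding partner of the receptors, separated all 3 groups. It was 9.02, 8.98, 9.35 and 9.23 on the melanocyte arrays. It ran from 9.55 to 10.4 with a median of 9.84 in iHRAS* tumours and from 10.8 to 11.4 with a median of 11.2 in iMet tumours. No group overlapped another. Rbpj was higher in iMet than in iHRAS* tumours by 1.31 ± 0.15 (2.48-fold, limma adjusted p 0.000195), than in melanocytes by 2.04 ± 0.16 (4.11-fold, adjusted p 3.00e-07), and in iHRAS* tumours than in melanocytes by 0.73 ± 0.16 (adjusted p 0.00245). The order of the groups was therefore the reverse of that of Hes1.

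Among the ubiquitin ligases and trafficking proteins, Dtx2, a Deltex ligase that modifies Notch receptors, was lower in iMet than in iHRAS* tumours (log2 difference -2.28 ± 0.28, limma adjusted p 0.000257), with no overlap. It was higher in iHRAS* tumours than in melanocytes by 2.09 ± 0.30 (adjusted p 0.00011). Itch, a ligase that also acts on Notch, was lower in iMet than in iHRAS* tumours (-0.55, adjusted p 0.00711) and higher in iHRAS* tumours than in melanocytes (0.57, adjusted p 0.00354). On the values as deposited the first Itch difference was -0.29 (adjusted p 0.133), and without melanocyte arrays 2 and 4 the second was 0.46 (adjusted p 0.0575). Neurl1a, a Neuralized-type ligase, was lower in iMet (-1.30, adjusted p 0.00027) and in iHRAS* tumours (-1.26, adjusted p 0.000338) than in melanocytes, below the range of the 4 melanocyte arrays on every tumour array. Dtx3, another Deltex ligase, was higher in iMet (0.73, adjusted p 0.00673) and iHRAS* tumours (0.80, adjusted p 0.00329) than in melanocytes, but neither call held with each array centred on its median (0.48, adjusted p 0.0905, and 0.55, adjusted p 0.0507), and the first did not without melanocyte arrays 1 and 3 (0.0528). Numbl, a relative of the Notch inhibitor Numb, was lower in iMet tumours than in melanocytes (-0.57, adjusted p 0.0151), and the difference was -0.45 (adjusted p 0.0511) on the values as deposited, -0.47 (0.0549) without melanocyte array 3 and -0.39 (0.184) without arrays 1 and 3. Fbxw7, which marks the Notch intracellular domain for degradation, was lower in iMet tumours than in melanocytes (-0.48, adjusted p 0.0367), a call that was lost without any 1 melanocyte array (0.0539 to 0.0892), without any 1 of iMet arrays 1, 2, 4 and 5 (0.0525 to 0.071), with either pair of melanocyte arrays left out (0.128 and 0.142), with no filter (0.0566) and with the array number as a block (0.077).

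**Figure D4:**
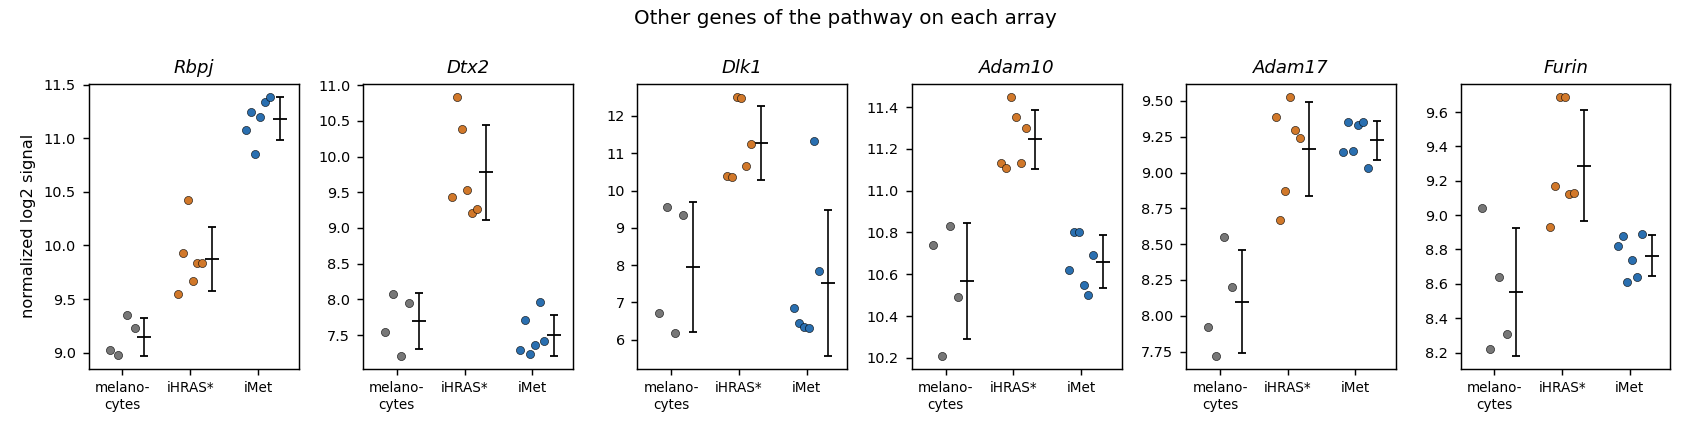
Normalized log2 signal (y axis) of Rbpj, Dtx2, Dlk1, Adam10, Adam17 and Furin on every array, by group (x axis), with 1 point for each array and the mean ± SD to the right. Rbpj forms 3 separate ranges with iMet highest, and Dtx2 and Adam10 are highest in the iHRAS* arrays.

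Of the proteases that process the receptors, Adam17, which can cleave Notch at the cell surface, was higher in iMet (1.13, limma adjusted p 0.00029) and iHRAS* tumours (1.07, adjusted p 0.000426) than in melanocytes, on every array. Adam10, the protease of ligand-induced cleavage, was lower in iMet than in iHRAS* tumours (-0.58 ± 0.10, adjusted p 0.00188) and higher in iHRAS* tumours than in melanocytes (0.68, adjusted p 0.00093). With the mean of its probe sets neither Adam10 difference passed (-0.32, adjusted p 0.172, and 0.40, adjusted p 0.105), and with each array centred on its median the second did not (0.47, adjusted p 0.0509). Furin, which cuts the receptor precursor, was lower in iMet than in iHRAS* tumours (-0.53, adjusted p 0.0222), and in the alternatives that lost this call its adjusted p reached 0.0777. It was higher in iHRAS* tumours than in melanocytes by 0.74 (adjusted p 0.00508), but by 0.45 with adjusted p 0.13 without melanocyte arrays 2 and 4.

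Of the other ligands, Dlk1, a Delta-like protein that lacks the domain by which Delta ligands activate Notch, was lower in iMet than in iHRAS* tumours (log2 difference -3.75 ± 0.81, limma adjusted p 0.00682). Its value on iMet array 5 was 11.34, within the iHRAS* range of 10.4 to 12.5, and the other iMet arrays lay at or below 7.85. Melanocyte arrays 2 and 4 (9.57 and 9.34) again stood above arrays 1 and 3 (6.72 and 6.18), and the iHRAS* difference from melanocytes of 3.32 (adjusted p 0.0129) was 1.82 (adjusted p 0.225) without the latter pair. Mfng, a Fringe glycosyltransferase that alters which ligands a receptor answers, was at least 2.02-fold higher in iMet tumours than in melanocytes, whose 4 arrays all lay below the limit (fitted difference 2.36, adjusted p 0.0057), and its adjusted p without melanocyte arrays 1 and 3 was 0.055. Poglut1, which glycosylates Notch, was higher in iMet than in iHRAS* tumours (0.55, adjusted p 0.0341), but was not called with no filter (adjusted p 0.0603), without iHRAS* arrays 5 and 6 (0.0514), nor with iMet array 1, 3, 5 or 6, or with iHRAS* array 2, 3, 4 or 6, left out alone (0.0519 to 0.0692).

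The remaining called genes include nuclear factors. Maml1, a Mastermind coactivator, was lower in iMet than in iHRAS* tumours (-0.48, limma adjusted p 0.0128). The Maml1 difference was -0.24 (adjusted p 0.0936) on the values as deposited, and its call was also lost with each array centred on its median (0.0679) and with the array number as a block (0.0532). Tle3, a Groucho-type corepressor, was lower in iMet tumours than in iHRAS* tumours (-0.57, adjusted p 0.00652) and than in melanocytes (-0.57, adjusted p 0.00703). The first Tle3 difference was -0.32 (adjusted p 0.116) on the values as deposited, and the second was -0.37 (adjusted p 0.135) without melanocyte arrays 2 and 4. Tle2, of the same family, was higher in iMet (1.63, adjusted p 0.00124) and iHRAS* tumours (1.76, adjusted p 0.000647) than in melanocytes. Tle1, another of them, was higher in iMet tumours than in melanocytes (0.55, adjusted p 0.0428), and its adjusted p was 0.134 with each array centred on its median, 0.0638 with no filter, 0.0522 to 0.117 without any 1 melanocyte array, up to 0.085 without any 1 of iMet arrays 1, 2, 3 and 6, and 0.153 and 0.137 without melanocyte arrays 1 and 3 or 2 and 4. Hdac2, a histone deacetylase of corepressor complexes, was lower in iMet (-0.62, adjusted p 0.0132) and iHRAS* tumours (-0.64, adjusted p 0.00977) than in melanocytes. Without melanocyte arrays 2 and 4 the Hdac2 differences were -0.48 (adjusted p 0.123) and -0.50 (adjusted p 0.106), and the first was also lost without melanocyte array 4 (0.0513) and with the array number as a block (0.0615).

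Of the other HES and HEY genes and feedback targets 3 of 8 were tested, and limma called 0 of them between the models (0 at an unadjusted p under 0.05) and Hes6, a HES-family member, lower in iMet tumours than in melanocytes (-0.71, adjusted p 0.0228). The Hes6 call was lost without melanocyte array 1 (adjusted p 0.0658) or 4 (0.0505), without arrays 1 and 3 (0.126) or 2 and 4 (0.0826), and with the array number as a block (-0.54, 0.0802).

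The genes whose pattern over the 16 arrays was most like that of each member tested against melanocytes were found by Pearson r among 8650 other genes, with the r of deviations from the group means given second. For Notch2 they were the macrophage genes Cd68 (0.96 and 0.93), Trem2 (0.94 and 0.83) and Syk (0.91 and 0.72). For Notch3 they were Stk38 (0.94 and 0.78), Vwf (0.92 and 0.68) and Cflar (0.90 and 0.65). Vwf, on the endothelial list, was below the limit on all 4 melanocyte arrays and above it on 2 iMet and 4 iHRAS* arrays. It averaged 5.55 in iMet and 6.60 in iHRAS* tumours, whereas 8 of 12 endothelial markers were called higher in iMet. For Notch4 they were Fcna (0.95 and 0.76), Agfg2 (0.93 and 0.77) and Pxk (0.92 and 0.70). For Notch1 the closest was Cbr3 (0.88 and 0.84), followed by Mxd4 and Tmem131l. For Jag1 it was Fads3 (0.93 and 0.57), followed by Stx6 and Nxn, and for Dll1 it was Nipsnap1 (0.95 and 0.85), followed by Rbm28 and Snx18. For Jag2 they were Xpc (0.92 and 0.87), Bcam (0.92 and 0.89) and Rap1b (0.91 and 0.86). For Hes1 they were Serpinb9b (0.92 and 0.59), Aldh4a1 (0.92 and 0.49) and Ptprz1 (0.92 and 0.52), so that much of the likeness lay between the groups. For Heyl they were Mmp17 (0.88 and 0.72), the fibrillar collagen gene Col5a2 (0.87 and 0.83) and Pex19 (0.87 and 0.72). These values describe the arrays, which share their group, their cell makeup and their scaling.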

How the data were processed

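The authors deposited 1 table of log2 values for 22690 probe sets on 16 arrays, and the steps that summarised and normalized the probe signals are not given in the sources used here. Per the labels' protocols, RNA was isolated with Trizol and RNeasy columns and labelled as biotinylated cRNA. The medians of the deposited arrays ran from 6.56 to 7.28, a spread of 0.72, so 64 control probe sets were left out and the values were quantile-normalized, which removes any difference in the overall distribution of signal. Probe sets were named by the platform annotation (20380 with 1 symbol, 691 with several, 1555 with none), of which 20351 matched the reference genes of GRCm38.p6 by gene ID. A gene was its probe set with the highest mean (12393 genes), and entered a fit if it passed log2 6.21, the 40th percentile of all values, on a number of arrays equal to the size of the smallest group fitted. Differences were fitted with limma 3.58.1 in R 4.3.3 (lmFit and eBayes, two-sided), on 12 tumour arrays between the models and on all 16 against melanocytes, adjusted by Benjamini-Hochberg over all genes tested and called under 0.05. Members outside the fit were compared by two-sided exact permutation tests, whose smallest p is 0.00216 for 6 against 6 arrays and 0.00476 for 6 against 4. A group below log2 6.21 on all its arrays was also set at that level, to give a bound on the fold. The fit was tested on simulated data.

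The members, gene lists and alternatives were chosen with earlier results of these data known. All members and their probe sets are named. Of the other pathway genes those called are named, up to 4 of each list by smallest p, with the 3 most alike genes of each member tested. The 8 cell type lists are given by counts, sums and defining members. Alternatives were the deposited and the median-centred scale, no filter or the 60th percentile, the mean of all probe sets, every probe set fitted, other groups in the fit, an intensity trend, a replicate block, single arrays left out, and 3 pairs of arrays left out that earlier results had set apart. The number of arrays limits the precision.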

Additional observations from a re-analysis of the deposited data

Results flagged for a closer look

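In 87 groups of 4 to 6 arrays of the named genes, 4 arrays lay far from the rest of their group, and chance gives about 1 in 20. Dll1 was 7.58 (log2) on iHRAS* array 2, where the nearest other iHRAS* array was 7.05. Dlk1 was 11.34 on iMet array 5, where the nearest was 7.85. Mfng was 4.28 on melanocyte array 1, where the nearest was 5.04, and 3.43 on iHRAS* array 3, where the nearest was 6.05.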

How the results depend on the processing

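Over 558 settings of the members, 507 kept direction and call, 36 lost the call, 9 gained it and 6 changed sign. Of 687 settings of the other pathway genes named, 620 kept both and 67 lost the call. The number of members called between the models, 1 in the main fit, was 2 on the values as deposited, 2 with all 16 arrays in the fit and 2 with every probe set fitted, and ran from 1 to 3 when single arrays were left out, with 3 reached without iHRAS* array 3. For iMet against melanocytes, 8 in the main fit, it was 5 with the filter at the 60th percentile, which tests fewer genes, and 7 to 8 without single arrays. For iHRAS* against melanocytes, 7 in the main fit, it was 4 with that filter, 4 with the mean of all probe sets, 4 without melanocyte arrays 2 and 4, and 6 to 7 without single arrays. All genes called there, 3404, were 2177 without melanocyte arrays 2 and 4, and 5256 probe sets were called with every probe set fitted. Without single arrays all genes called ran from 1293 to 1797 between the models, from 2440 to 2840 for iMet and from 2740 to 3560 for iHRAS* against melanocytes. Changes of sign were those of Jag2 between the models (0.18 as deposited, 0.17 without iHRAS* arrays 5 and 6, and -0.0915 to 0.114 without single arrays), Dll1 between the models (0.12 as deposited) and Notch2 for iHRAS* against melanocytes (-0.45 with the mean of its probe sets), and the cause was not tested. Scaling moved the median of all genes between the models from 0.03 to 0.23 on the deposited values, and the share of calls that were higher in iMet from 53.6% to 80.1%. With each array centred on its median, the median against melanocytes moved from -0.08 to -0.22 for iMet, with the share higher going from 46.6% to 33.7%, and from -0.09 to -0.23 for iHRAS*, with 46.0% going to 34.2% (-0.21 and 35.6% as deposited). No pairing of the samples by array number was detected, though so few arrays cannot exclude it. The deviations of same-numbered arrays correlated at -0.23 to 0.14 between the models, with 2 of 6 pairs over 0.1. Against melanocytes they correlated at most at 0.10. With the number as a replicate block 1, 7 and 6 members were called in the 3 comparisons, the call lost in both comparisons with melanocytes being that of Jag2 (-1.19, adjusted p 0.0584, and -1.16, adjusted p 0.0572), and all genes called were 1186, 2401 and 2832. Signals near background limit Hey1, Jag1 in tumours, Heyl in iMet tumours and Notch4 in melanocytes.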
